A study of Homo sapiens with 6 samples.

Results

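The genes described here are 40 named genes of glucose uptake, glycolysis, lactate handling and the response to low oxygen, taken as all probes that the array's annotation assigns to one of their symbols. They were measured on Illumina bead arrays in HCT116 cells, a line from a human colorectal carcinoma, that expressed a short hairpin RNA (shRNA). PEA15, the target of the hairpins, is a small adaptor protein with a death effector domain, known to hold ERK kinases in the cytoplasm. There were 3 groups with 2 arrays each: NS shRNA (a non-silencing hairpin, the control), PEA15 shRNA 1 and PEA15 shRNA 2. All groups were grown in the same medium with serum under 5% CO2, and no group was labelled as grown in low oxygen or without glucose. Replicates are numbered, and nothing says whether they came from separate cultures or whether a line was 1 clone, so p-values reflect the spread of these 6 samples alone, which may be technical. Of the 40 genes, 37 had at least 1 of 67 probes, and 35 genes with 57 probes were detected on both arrays of a group and tested, among 15967 tested rows (11498 genes and 4469 probes without a listed gene). PDK1, a kinase that shuts pyruvate dehydrogenase down, and EGLN3, an oxygen-sensing prolyl hydroxylase, had 1 probe each, detected on 0 of 6 arrays. The lactate transporters SLC16A1 and SLC16A3 and the carbonic anhydrase CA9 had no probe in the annotation used and were not analysed here.

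Glycolysis splits glucose into pyruvate in the cytosol, and lactate dehydrogenase turns pyruvate into lactate so that the pathway can run on. Tumour cells, colorectal carcinoma among them, often take up much glucose and release lactate even with oxygen present. The transcription factor HIF-1, made of an oxygen-labile alpha subunit and a stable beta subunit, raises many of the same enzyme genes in low oxygen, along with genes of vessel growth, mitophagy and collagen processing. PCK2 encodes the mitochondrial phosphoenolpyruvate carboxykinase, which makes phosphoenolpyruvate from oxaloacetate, and it is known as a target of the stress transcription factor ATF4.

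Levels are log2 values after background correction and quantile normalization, and they were compared only within a probe. PEA15 itself stood at 8.97 and 9.15 on the NS arrays, 8.22 and 8.17 under shRNA 1, and 7.71 and 7.93 under shRNA 2. It fell by 1.23 ± 0.12 (log2 change, SE, n = 2 arrays a group) with shRNA 2 (limma adjusted p = 0.00573) and was -0.86 ± 0.12 from the control with shRNA 1 without passing (adjusted p = 0.122). Of 7 colorectal epithelial markers, 6 were detected on all arrays (EPCAM, CDH1, KRT8, KRT18, KRT19 and CDX2) and VIL1 on none, and the summed linear level of the 6 was 13320 to 14188 on the NS arrays, 14645 to 15179 with shRNA 1 and 14269 to 14416 with shRNA 2. Of 9 markers of other cell types, 5 were detected on no array (PTPRC, COL1A2, PECAM1, VWF and HBB), DCN on at most 2, and CD14, CD68 and COL1A1 were tested, with 0 past the test. The sum over these 3 was 181 to 213 on the NS arrays, 174 to 179 with shRNA 1 and 198 to 205 with shRNA 2. In whole-culture RNA, fewer expressing cells and less RNA per cell cannot be told apart.

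With shRNA 2, 5 of the 35 tested genes rose against the control and 0 fell: PCK2, the hexokinase-like HKDC1, the glucose transporter SLC2A3, the angiogenic growth factor VEGFA and the aldolase ALDOC. These 5 are 14.3% of the tested genes, against 1.7% of all rows called in that comparison (1.2% higher). The gene list was chosen with earlier results of these data known, and all rows include 4469 without a listed gene. The 2 shares therefore do not test the list as a set. With shRNA 1, 0 of 35 passed (limma), where 0.0188% of all rows were called. An unadjusted p under 0.05 was reached by 4 of 35 genes with shRNA 1 (11.7% of all rows), 10 with shRNA 2 (17.9% of all rows) and 10 between the hairpins (22.4% of all rows). Between the hairpins 6 passed, against 3.32% of all rows: the same 5 names were higher with shRNA 2, and P4HA2, a collagen prolyl hydroxylase, was lower, as were 1.32% of all rows. The 2 PEA15 comparisons share the NS arrays, so their values are not independent of each other. The median change over the 35 genes was 0.049 with shRNA 1 and 0.069 with shRNA 2, beside -0.0036 and -0.0060 over all rows. Both arrays of a hairpin lay outside both NS arrays for 15 higher and 7 lower of the 35 genes with shRNA 1 and for 17 higher and 8 lower with shRNA 2, where 42.2% (20.6% higher and 21.7% lower) and 50.1% (24% higher and 26.1% lower) of all rows did so. Between the hairpins 13 of 35 were higher and 10 lower with shRNA 2 on both arrays, against 53.7% of all rows (26% higher and 27.7% lower). When any 1 NS array or any 1 shRNA 2 array was left out, PCK2 was the 1 gene still called against the control, and leaving out 1 hairpin array left 1 or 2 calls between the hairpins, PCK2 among them.

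**Figure D1:**
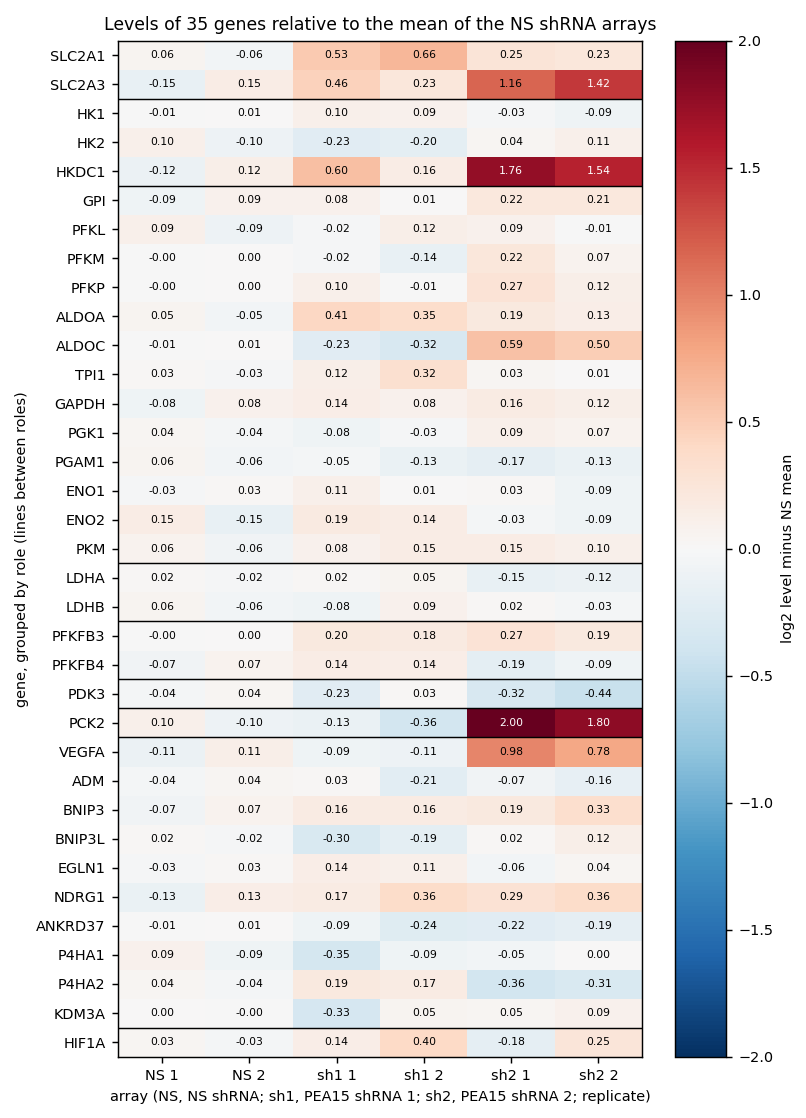
Log2 level of each of the 35 tested genes (rows, grouped by role) on each of the 6 arrays (columns), minus the mean of the gene on the 2 NS arrays; red is higher and blue lower. PCK2, HKDC1, SLC2A3, VEGFA and ALDOC are red on both shRNA 2 arrays, while most enzyme rows stay pale on every array.

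**Figure D2:**
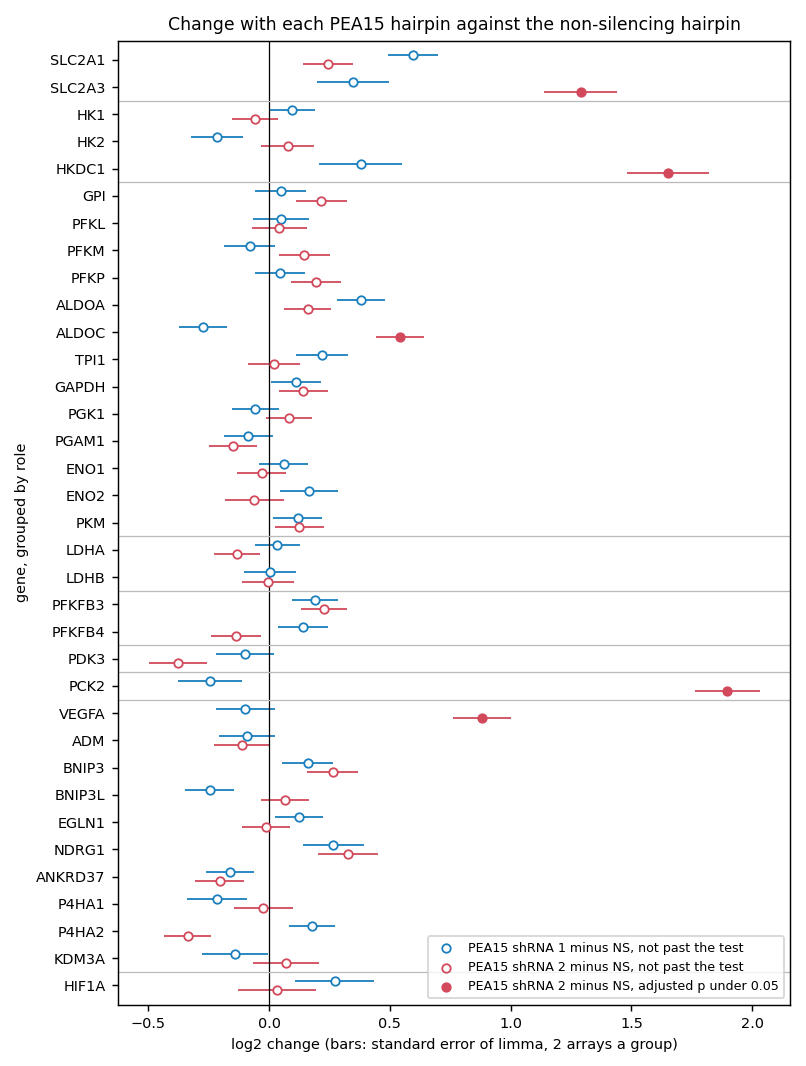
Log2 change of each gene (points) with its standard error (bars, n = 2 arrays a group) for each PEA15 hairpin against the non-silencing hairpin; filled points passed at an adjusted p under 0.05. The 5 filled points all belong to shRNA 2, and the open points lie between -0.38 and 0.60.

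Glucose enters these cells through facilitative transporters. SLC2A1 encodes GLUT1, the widespread basal transporter, and SLC2A3 encodes GLUT3, a high-affinity form best known from neurons. SLC2A3 stood at 6.97 and 7.27 on the NS arrays, 7.58 and 7.35 under shRNA 1, and 8.28 and 8.54 under shRNA 2. Both shRNA 2 arrays were above the other 4. It rose by 1.29 ± 0.15 with shRNA 2, a 2.44-fold difference (95% confidence interval 1.92 to 3.12, limma adjusted p = 0.0109), and with shRNA 1 it was 0.35 ± 0.15 higher without passing (adjusted p = 0.432). The level with shRNA 2 was 1.92-fold that with shRNA 1 (adjusted p = 0.0224). SLC2A3 has a near-identical neighbour, SLC2A14, whose RNA its probe may also capture, and the probe of SLC2A14 was detected on 0 of 6 arrays.

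SLC2A1 had another pattern over the 3 groups. Its level was 9.92 and 9.79 on the NS arrays, 10.38 and 10.52 under shRNA 1, and 10.11 and 10.09 under shRNA 2. The shRNA 1 arrays were the highest, the shRNA 2 arrays came between, and no groups overlapped. The shRNA 1 level was 1.51 times the control (0.60 ± 0.10, 95% confidence interval of the ratio 1.28 to 1.79). This missed the threshold over all rows (adjusted p = 0.182) but met it under 4 of 16 alternatives (adjusted p from 0.000693 to 0.466). With shRNA 2 it was 0.24 ± 0.10 (adjusted p = 0.280), and between the hairpins -0.35 ± 0.10 (adjusted p = 0.106), neither past the test. So the transporter with the larger difference was SLC2A1 with shRNA 1 and SLC2A3 with shRNA 2, by values of which only the SLC2A3 one passed.

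Hexokinases trap glucose in the cell by phosphorylating it. HK1 is the form found in most tissues, HK2 the form high in muscle and many tumours, and HKDC1 a less studied relative encoded next to HK1. HKDC1 stood at 5.38 and 5.63 on the NS arrays, 6.11 and 5.66 under shRNA 1, and 7.26 and 7.05 under shRNA 2, and it was detected on all 6. The shRNA 2 arrays were far above the other 4, and the lower shRNA 1 array was barely above the higher NS array. The rise with shRNA 2 was 1.65 ± 0.17, or 3.14-fold (95% confidence interval 2.39 to 4.14, adjusted p = 0.00711), and the difference between the hairpins 1.27 ± 0.17 (adjusted p = 0.0129). With shRNA 1 the change of 0.38 ± 0.17 did not pass (adjusted p = 0.448). Levels of HKDC1 are low on this scale, where the offset used in background correction shrinks changes: with an offset of 50 in place of 16 its change with shRNA 2 was 1.15, and with no background correction 0.82, both past the test.

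The neighbouring HK1 showed no such difference. HK1 was at 10.75 and 10.77 on the NS arrays, 10.86 and 10.85 under shRNA 1, and 10.73 and 10.67 under shRNA 2, with changes of 0.09 ± 0.09 and -0.06 ± 0.09 against the control. HK2 was at 8.68 and 8.47, 8.34 and 8.38, and 8.62 and 8.68 in the same order. Its shRNA 1 arrays were below both other groups, with -0.21 ± 0.11 against the control (adjusted p = 0.501), and its shRNA 2 arrays overlapped the NS arrays (0.08 ± 0.11). A second, dimmer HK2 probe gave 0.03 with shRNA 1, against -0.21 for the brighter one.

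**Figure D3:**
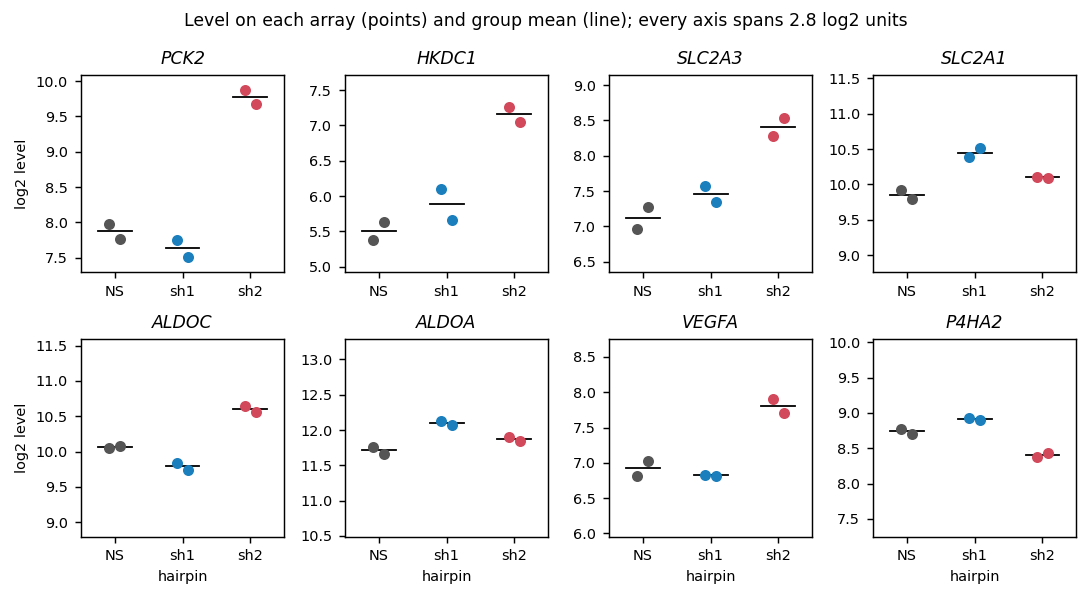
Log2 level (vertical axes, all of the same span) of 8 genes on each array (points) with the group mean (lines) for NS shRNA (NS), PEA15 shRNA 1 (sh1) and PEA15 shRNA 2 (sh2). The shRNA 2 points of PCK2, HKDC1, SLC2A3, ALDOC and VEGFA lie above all other points of the gene. Those of SLC2A1 and ALDOA lie between the NS and shRNA 1 points. Each gene is drawn from its brightest probe, and a second ALDOA probe did not show this order.

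After hexokinase, the pathway runs through GPI (isomerase), phosphofructokinase (PFKL, PFKM and PFKP, the liver, muscle and platelet subunits of its committed step), aldolase (ALDOA and ALDOC), TPI1, GAPDH, PGK1, PGAM1, enolase (ENO1 and ENO2) and pyruvate kinase (PKM). Of these 13 genes, 1 rose with shRNA 2, ALDOC, and 12 did not pass. With shRNA 1, 0 passed (2 at an unadjusted p under 0.05, ALDOA and ALDOC). The aldolases split fructose bisphosphate into 2 three-carbon sugars, ALDOA being the ubiquitous form and ALDOC the form known from brain. ALDOC stood at 10.05 and 10.07 on the NS arrays, 9.83 and 9.75 under shRNA 1, and 10.65 and 10.56 under shRNA 2. The shRNA 1 arrays were the lowest and the shRNA 2 arrays the highest, without overlap. The rise with shRNA 2 was 0.54 ± 0.10, or 1.46-fold (95% confidence interval 1.24 to 1.71, adjusted p = 0.0467), close to the threshold, and the call held in 6 of 16 alternatives (adjusted p from 0.000196 to 0.200). The change with shRNA 1 was -0.27 ± 0.10 without passing (adjusted p = 0.350). Between the hairpins the difference was 0.81 ± 0.10, or 1.76-fold (adjusted p = 0.0103).

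ALDOA stood at 11.76 and 11.66 on the NS arrays, 12.12 and 12.07 under shRNA 1, and 11.90 and 11.84 under shRNA 2. On this probe, as for SLC2A1, the shRNA 1 arrays were the highest and the shRNA 2 arrays came between. Its change with shRNA 1 was 0.38 ± 0.10 (adjusted p = 0.252, called in 3 of 16 alternatives, adjusted p 0.0119 to 0.502). A second probe of similar level did not repeat the order, with 0.05 for shRNA 1 and 0.17 for shRNA 2. Between the hairpins that probe gave 0.12, against -0.22 for the first. By the brightest probe of each, the 2 aldolases had differences of opposite sign with shRNA 1 (0.38 and -0.27), and neither difference passed.

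The rest of the chain varied little. GAPDH was at 13.32 and 13.48 on the NS arrays, 13.54 and 13.48 under shRNA 1, and 13.56 and 13.52 under shRNA 2, with changes of 0.11 ± 0.10 and 0.14 ± 0.10. ENO1, at 13.61 and 13.66, 13.74 and 13.65, and 13.66 and 13.54 in the same order, had groups that overlapped in all 3 comparisons. The largest of the 12 uncalled changes of this chain with shRNA 2 was that of GPI, 0.22 ± 0.10 (adjusted p = 0.331), and the lowest that of PGAM1, -0.15 ± 0.10. PFKL was between -0.01 and 0.05 in the 3 comparisons. Changes of PFKM and PFKP with shRNA 2 were 0.14 ± 0.11 and 0.19 ± 0.10, and those of TPI1, PGK1, ENO2 and PKM were 0.02, 0.08, -0.06 and 0.12. A missed threshold does not show equal levels: over the 16 enzymes not called with shRNA 2, hexokinases and lactate dehydrogenases included, the 95% confidence intervals reached down to -0.38 (PGAM1) and up to 0.46 (GPI). Several of these enzymes have many processed pseudogenes, whose RNA, if made, their probes may also capture.

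Lactate dehydrogenase is built from LDHA subunits, which dominate in lactate-making tissue, and LDHB subunits, which dominate in heart. LDHA was at 13.53 and 13.48 on the NS arrays, 13.52 and 13.56 under shRNA 1, and 13.36 and 13.39 under shRNA 2. Its shRNA 2 arrays were below the other 4, by -0.13 ± 0.09 against the control, which did not pass (adjusted p = 0.502). A second bright LDHA probe gave -0.20 and a dim one gave 0.16. LDHB had overlapping groups throughout, with changes of 0.0035 and -0.0043 against the control.

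PFKFB3 and PFKFB4 make and break fructose 2,6-bisphosphate, the activator of phosphofructokinase. PFKFB3 was at 9.80 and 9.81 on the NS arrays, 10.01 and 9.99 under shRNA 1, and 10.07 and 10.00 under shRNA 2, above the control on all 4 PEA15 shRNA arrays by 0.19 ± 0.10 and 0.23 ± 0.10, neither past the test (adjusted p = 0.500 and 0.266). PFKFB4 was 0.14 higher with shRNA 1 and -0.14 with shRNA 2, each ± 0.10. PDK3, a kinase that holds pyruvate back from the mitochondrion, was at 8.66 and 8.74 on the NS arrays, 8.47 and 8.72 under shRNA 1, and 8.38 and 8.26 under shRNA 2. Both shRNA 2 arrays were the lowest, with -0.38 ± 0.12 against the control (adjusted p = 0.163), and this passed under 3 of 16 alternatives. A dimmer PDK3 probe gave -0.07.

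PCK2 differed the most of the 35 genes. It stood at 7.98 and 7.77 on the NS arrays, 7.75 and 7.51 under shRNA 1, and 9.87 and 9.67 under shRNA 2. The shRNA 2 arrays were above all others, and the shRNA 1 arrays were slightly below the NS arrays. It rose by 1.90 ± 0.13 with shRNA 2, or 3.73-fold (95% confidence interval 3.00 to 4.63, adjusted p = 0.00131), and passed under 16 of 16 alternatives (changes of 1.58 to 2.00). With shRNA 1 the change was -0.24 ± 0.13 (adjusted p = 0.541), and the level with shRNA 2 was 4.41-fold that with shRNA 1 (adjusted p = 0.000766). A second PCK2 probe gave 1.90 and the third, the dimmest, 0.50, which did not pass (adjusted p = 0.267 with every probe as its own row). Both dimmer probes were detected on 1 of the 2 shRNA 1 arrays.

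**Figure D4:**
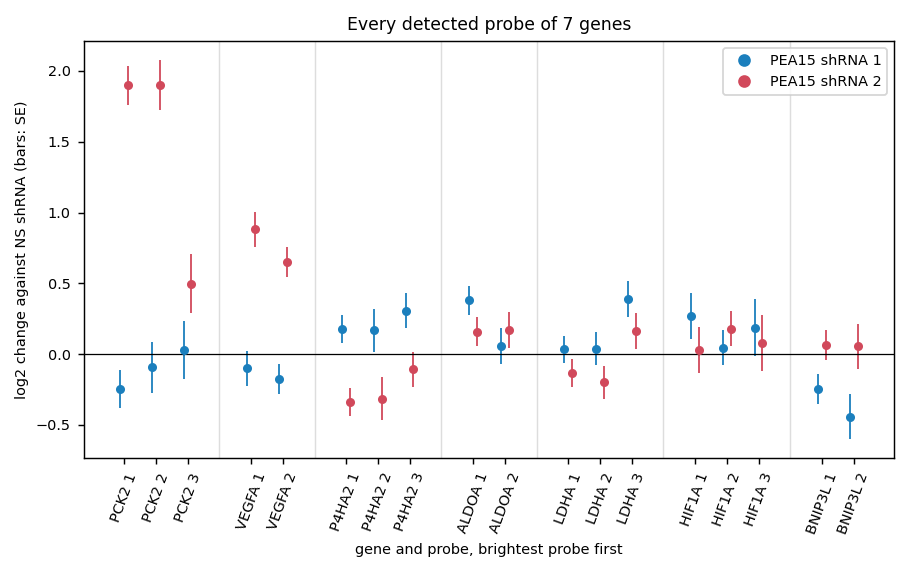
Log2 change against NS shRNA with its standard error (bars, n = 2 arrays a group) for every detected probe of 7 genes, brightest probe first, with PEA15 shRNA 1 in blue and PEA15 shRNA 2 in red. Both VEGFA probes and the first 2 PCK2 probes are well above 0 with shRNA 2, while the probes of ALDOA and LDHA differ among themselves.

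The 12 hypoxia-inducible genes outside glycolysis are induced by HIF-1 or HIF-2 in low oxygen, and 10 of them were tested. With shRNA 2, 1 of 10 rose, VEGFA, 0 fell and 9 did not pass. VEGFA stood at 6.81 and 7.03 on the NS arrays, 6.83 and 6.81 under shRNA 1, and 7.90 and 7.70 under shRNA 2. The NS and shRNA 1 arrays overlapped, and both shRNA 2 arrays were above them. The rise was 0.88 ± 0.12, or 1.84-fold (95% confidence interval 1.51 to 2.24, adjusted p = 0.0185), and the difference between the hairpins 0.98 ± 0.12 (adjusted p = 0.0103). A second VEGFA probe gave 0.65 against the control (adjusted p = 0.0328 with every probe as its own row), and the third was detected on 0 arrays. With shRNA 1 VEGFA was at -0.10 ± 0.12 (adjusted p = 0.816).

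Of the other 9, BNIP3 also had both shRNA 2 arrays (10.18 and 10.32) above the other 4 (9.92 to 10.15), without passing against the control (adjusted p = 0.250). ADM, a vasodilator peptide, was at 10.63 and 10.71 on the NS arrays, 10.70 and 10.46 under shRNA 1, and 10.60 and 10.51 under shRNA 2, with -0.11 ± 0.12 for shRNA 2. ANKRD37, a short ankyrin protein, was at 7.72 and 7.74, 7.65 and 7.50, and 7.51 and 7.55, below the control on all 4 PEA15 shRNA arrays without passing (-0.16 ± 0.10 and -0.21 ± 0.10). EGLN1, the main prolyl hydroxylase that marks HIF alpha for breakdown, gave 0.12 ± 0.10 and -0.01 ± 0.10. KDM3A, a histone demethylase, gave -0.14 and 0.07, each ± 0.14. The mitophagy receptors went separate ways with shRNA 1: BNIP3 was at 0.16 ± 0.11 and BNIP3L at -0.25 ± 0.10, neither past the test, and with shRNA 2 they were at 0.26 ± 0.11 and 0.07 ± 0.10. NDRG1, a stress-induced growth regulator, was 0.27 ± 0.12 and 0.33 ± 0.12 higher with the 2 hairpins, again without passing (adjusted p = 0.469 and 0.230).

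P4HA1 and P4HA2 encode the catalytic subunits of the enzyme that hydroxylates collagen prolines. P4HA2 stood at 8.77 and 8.70 on the NS arrays, 8.93 and 8.90 under shRNA 1, and 8.37 and 8.43 under shRNA 2. The order was shRNA 1, NS, shRNA 2, with no overlap. P4HA2 was lower with shRNA 2 than with shRNA 1 by a log2 difference of -0.52 ± 0.10, a ratio of 0.700 (95% confidence interval 0.599 to 0.817, limma adjusted p = 0.0364). Its other probes gave -0.48 and -0.41, neither past the test with every probe as its own row (limma adjusted p = 0.126 and 0.112). The dimmest probe was detected on only 1 NS array and 1 shRNA 2 array. The call of the brightest probe was lost in 10 of 16 alternatives (adjusted p from 0.000712 to 0.147), among them those that left out any 1 of the 6 arrays. Against the control neither hairpin passed (0.18 ± 0.10 and -0.34 ± 0.10, adjusted p = 0.535 and 0.128). P4HA1 was at -0.22 ± 0.12 and -0.02 ± 0.12.

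HIF1A, the oxygen-labile alpha subunit, is controlled mainly through protein stability, which these arrays do not measure. Its RNA was at 8.04 and 7.97 on the NS arrays, 8.14 and 8.41 under shRNA 1, and 7.82 and 8.25 under shRNA 2. Both shRNA 1 arrays were above the NS arrays and the shRNA 2 arrays spanned them, with changes of 0.27 ± 0.16 (adjusted p = 0.580) and 0.03 ± 0.16. Its other probes gave 0.04 and 0.19 with shRNA 1 and 0.18 and 0.08 with shRNA 2.

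The 18 enzymes from hexokinase to lactate dehydrogenase were set beside the 10 hypoxia-inducible genes over the 3 groups. With shRNA 1 the median change was 0.048 for the enzymes, with 13 of 18 above 0, and -0.095 for the hypoxia-inducible genes, with 4 of 10 above 0. With shRNA 2 the medians were 0.079 (12 of 18 above 0) and 0.026 (5 of 10 above 0). All these medians are far smaller than the change of any called gene, and over all rows 49% and 48.9% of changes were above 0. By array, relative to the NS mean of each gene, the enzyme median was 0.027 and -0.027 on the NS arrays, 0.082 and 0.067 under shRNA 1, and 0.094 and 0.069 under shRNA 2. The enzyme medians of all 4 PEA15 shRNA arrays were above those of both NS arrays. Over all rows the medians by array lay between -0.0062 and 0.0019. The 2 NS medians mirror each other about 0 because each gene was measured from its own mean on those arrays. The order of the enzyme medians is therefore a description and not a test. These medians use only the brightest probe of each gene. Of the 16 tested genes with more than 1 kept probe, probes differed in sign for 5 with shRNA 1 and 4 with shRNA 2. The median of the hypoxia-inducible genes was -0.019 and 0.019 on the NS arrays, -0.029 and -0.020 under shRNA 1, and -0.016 and 0.065 under shRNA 2. Its values on the shRNA 2 arrays thus lay on either side of 0. Each group of genes had 1 or 2 members that rose with shRNA 2 (HKDC1 and ALDOC among the enzymes, VEGFA among the others), and with shRNA 2 the rest lay between -0.34 (P4HA2) and 0.33 (NDRG1). The difference between the 2 groups of genes was not tested, and genes are not replicates.

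**Figure D5:**
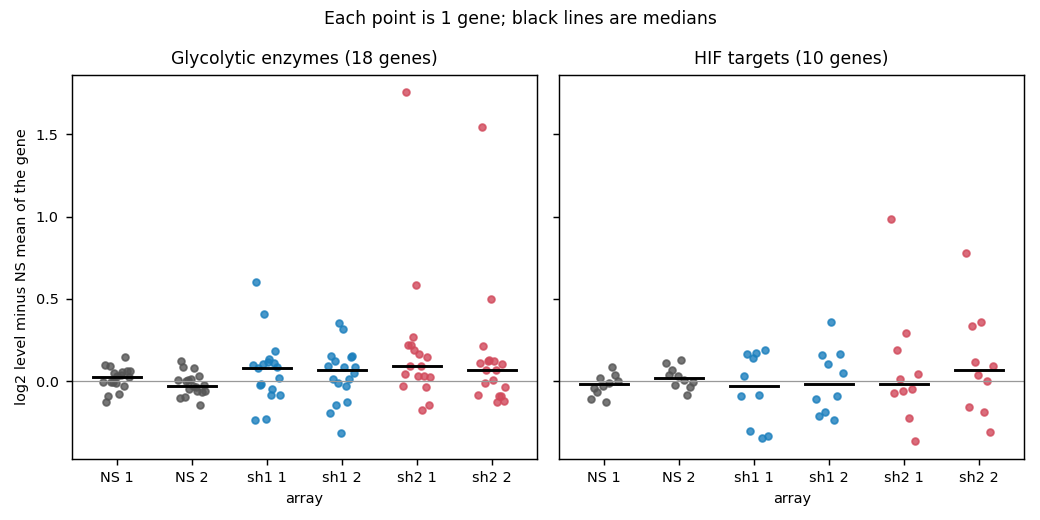
Log2 level minus the NS mean of the gene (vertical axis) for each of the 18 glycolytic enzymes (left) and 10 hypoxia-inducible genes (right) on each of the 6 arrays, with medians as black lines. Medians stay between -0.029 and 0.094 on every array, and the high points on the shRNA 2 arrays are HKDC1 and ALDOC on the left and VEGFA on the right.

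The promoters of 4 genes are shown for the short motifs linked to HIF and ATF4 that were searched. PCK2, HKDC1 and ALDOC rose with shRNA 2. LDHA did not pass, and its start has the most matches to the HIF-linked motif when each strand is counted separately. Each promoter runs from 250 bases before to 50 bases after a transcription start (RefSeq, GRCh38.p14), 5′ to 3′ on the strand of the gene. Matches are in capitals.
PCK2, chr14:24094061-24094360, plus strand: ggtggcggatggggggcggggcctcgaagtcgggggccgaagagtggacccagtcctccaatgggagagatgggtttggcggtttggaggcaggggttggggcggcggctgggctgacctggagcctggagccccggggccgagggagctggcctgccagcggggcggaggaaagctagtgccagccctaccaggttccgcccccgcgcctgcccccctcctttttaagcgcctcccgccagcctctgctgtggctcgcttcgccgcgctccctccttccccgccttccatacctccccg
HKDC1, chr10:69220082-69220381, plus strand: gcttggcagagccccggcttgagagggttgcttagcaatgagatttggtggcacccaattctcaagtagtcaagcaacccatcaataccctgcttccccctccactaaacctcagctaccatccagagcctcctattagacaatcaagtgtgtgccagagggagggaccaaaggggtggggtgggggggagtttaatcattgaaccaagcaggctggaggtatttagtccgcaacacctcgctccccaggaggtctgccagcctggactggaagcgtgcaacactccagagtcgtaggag
ALDOC, chr17:28576846-28577145, minus strand: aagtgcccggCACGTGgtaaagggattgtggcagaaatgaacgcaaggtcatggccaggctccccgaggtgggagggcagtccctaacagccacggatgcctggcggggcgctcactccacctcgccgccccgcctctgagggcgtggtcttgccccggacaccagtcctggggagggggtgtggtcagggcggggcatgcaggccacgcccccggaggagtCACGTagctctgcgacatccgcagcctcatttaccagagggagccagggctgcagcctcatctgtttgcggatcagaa
LDHA, chr11:18394313-18394612, plus strand: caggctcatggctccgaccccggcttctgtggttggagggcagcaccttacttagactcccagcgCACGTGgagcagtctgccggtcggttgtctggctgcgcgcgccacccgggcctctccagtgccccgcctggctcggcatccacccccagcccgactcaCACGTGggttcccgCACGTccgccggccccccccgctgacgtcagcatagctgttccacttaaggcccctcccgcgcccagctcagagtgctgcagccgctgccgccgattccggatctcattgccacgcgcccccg

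Both strands were searched for ACGTG, a form of the hypoxia response element core, and for TGATGNAA, where N is any base. TGATGNAA is the composite element of ATF4 and C/EBP proteins. Other forms of the hypoxia core, such as GCGTG, were not searched. So 0 ACGTG matches do not show that a start lacks the core. CACGTG reads the same on both strands and counts as 2 overlapping ACGTG matches. With each CACGTG taken once, LDHA did not exceed PGK1, which had 3 separate matches. ACGTG was found 3 times at ALDOC, 5 times at this LDHA start, and 0 times at PCK2 and HKDC1. TGATGNAA was found at none of these 4 starts. Other forms of that element, and bases outside the window, were not searched, so this does not show that a gene lacks it. Of the 35 genes with promoter entries, 20 had ACGTG at 1 or more of their listed starts, and of all their 63 promoters 38.1% held it, against 21.4% of the 35116 promoters of the table. These 35 are not the 35 tested genes: they hold the untested PDK1, EGLN3, CA9 and SLC16A3, and the tested SLC2A3, VEGFA, NDRG1 and BNIP3L, of which SLC2A3 and VEGFA rose with shRNA 2, have no entry. TGATGNAA was in 3.17% of the 63 promoters, both of them starts of HK1, against 3.62% of the table. These HK1 windows overlap, and their match is the same site in the genome, at -45 from one start and -50 from the other. Windows of PFKM also overlap and share an ACGTG site, so the shares can count a site more than once. These matches describe letters in short windows and say nothing of binding.

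Further genes of the same pathways, from lists of non-members, were read in the same comparisons. Of 15 other glycolysis and glucose transport genes tested, 0 passed against the control with either hairpin (limma, unadjusted p under 0.05 for 1 with shRNA 1 and 4 with shRNA 2). Between the hairpins, 1 was lower with shRNA 2: TIGAR, a phosphatase that lowers fructose 2,6-bisphosphate, at -0.57 ± 0.11 (adjusted p = 0.0353), from 8.02 and 8.13 on the NS arrays, 8.39 and 8.39 under shRNA 1, and 7.90 and 7.74 under shRNA 2. Of 29 other HIF-inducible genes, 2 rose with shRNA 2 (6.9%, limma), where 1.7% of all rows were called (1.2% higher). With shRNA 1, 0 were called, against 0.0188% of all rows. An unadjusted p under 0.05 (limma) was reached by 2 with shRNA 1 (11.7% of all rows) and 7 with shRNA 2 (17.9% of all rows). The medians were -0.026 with shRNA 2 and -0.048 with shRNA 1. DDIT4, an inhibitor of mTORC1 signalling, rose by 1.24 ± 0.13 (2.36-fold, adjusted p = 0.00771), and STC2, a secreted glycoprotein, by 0.99 ± 0.14 (1.98-fold, adjusted p = 0.0205). Both are also known to respond to ATF4. Between the hairpins these 2 and CCNG2, an atypical cyclin, were higher with shRNA 2 (CCNG2 at 0.83 ± 0.17, adjusted p = 0.0467), and PLIN2, a lipid droplet coat protein, was lower (-0.53 ± 0.11, adjusted p = 0.0454). Over all rows 3.32% were called between the hairpins, 2% higher and 1.32% lower with shRNA 2.

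The remaining lists held 0 genes past the test in all 3 comparisons (limma, unadjusted p under 0.05 for 0 genes of each with shRNA 1 and for 1 or 2 of each with shRNA 2, and for 1 to 3 between the hairpins). Of 14 HIF subunits and oxygen-dependent regulators, ARNT2, a beta subunit relative, and EGLN2, a prolyl hydroxylase, were the nearest with shRNA 2, at -0.47 ± 0.13 (adjusted p = 0.112) and -0.38 ± 0.11 (adjusted p = 0.126). The median of 8 pentose phosphate genes was 0.098 with shRNA 2, with TKT, a transketolase, at 0.20 ± 0.10. TKTL1, its relative, was not detected with shRNA 2. In the control TKTL1 was near the detection floor (mean 4.90, floor 4.83 on the shRNA 2 arrays), and its change with shRNA 2 did not pass (limma adjusted p = 0.173). The median of 12 genes of pyruvate entry into mitochondria was 0.11 with shRNA 2, with 10 of 12 above 0, where 48.9% of all rows were. For 6 of the 12 the shRNA 2 and NS arrays overlapped. Nearest to the threshold was PC, pyruvate carboxylase, which supplies oxaloacetate, at 0.36 ± 0.11 (limma adjusted p = 0.141). The phosphatase PDP1 was at 0.42 ± 0.21 (adjusted p = 0.337). The median of 6 genes of gluconeogenesis and glycogen was -0.13 with shRNA 2, with the phosphorylase PYGB at 0.33 ± 0.14 and the glycogen primer GYG1 at -0.27 ± 0.12.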

How the data were processed

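Total RNA was hybridised as biotin-labelled cRNA, per the labels' protocols. The deposited non-normalized table gives a linear intensity and a detection p-value per probe and array. The submitters' processing notes name lumi for the deposited log2 table, which is quantile normalized by its values. Scanner software, background step and versions are not given in the sources used here. Arrays had 41.1% to 43.0% of probes detected (p under 0.05), and their number limits the precision. The neqc function of limma 3.58.1 (R 4.3.3) was applied to the intensities (normexp, offset 16, quantile, log2). Of 47323 probes, 19781 were detected on both arrays of a group. Each gene was read from its brightest kept probe, giving 15967 rows (11498 genes). Names came from the platform annotation: 30113 probes had 1 symbol, 8 several and 17202 none. One model with 3 group means was fitted to all 6 arrays (3 residual and 4.54 prior degrees of freedom), two-sided, with Benjamini-Hochberg adjustment over all rows and a threshold of 0.05. Errors are limma's standard errors. The 40 members, the other lists and the naming rule (all members, PEA15, the markers and, of each other list, the genes past the test or else the 2 nearest with shRNA 2) were chosen with earlier results of these data known. No strong shared effect of the replicate number was seen: same-numbered deviations correlated at -0.017, 0.045 and 0.078 between groups. This cannot show whether arrays of the same number were handled together. The planned comparison of hexokinase proteins was not made here.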

Additional observations from a re-analysis of the deposited data

Results flagged for a closer look

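The 2 hairpins target the same gene. By the limma test of shRNA 2 minus shRNA 1, 6 of the 35 tested genes passed, against 3.32% of all rows. The log2 differences were 2.14 for PCK2, 1.27 for HKDC1, 0.98 for VEGFA, 0.94 for SLC2A3, 0.81 for ALDOC and -0.52 for P4HA2. The P4HA2 call held in only 6 of 16 alternatives. PEA15 itself differed between the hairpins by -0.38 without passing (adjusted p = 0.122), and whether these 6 differences go with the depth of knockdown or with either hairpin's sequence was not tested. Groups of 2 arrays are too small to look for outlying arrays.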

How the results depend on the processing

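Each result was recomputed under 16 alternatives, 1 choice changed at a time. Of 560 values of the 35 genes in each comparison, 0 reversed a called direction; 0, 22 and 26 calls were lost and 7, 7 and 9 gained (shRNA 1 and shRNA 2 against the control, then shRNA 2 against shRNA 1). Signs of uncalled values turned in 12, 17 and 12 cases, in 9, 9 and 6 genes whose change was at most 0.142, 0.0759 and 0.0603 in size.

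With shRNA 1, 0 of the 35 genes passed in the reported fit, 2 with quantile normalization alone, 2 on the submitters' processed values, 1 with an offset of 50 and 2 with a trended prior; leaving out 1 array gave 0 throughout (3 to 6 at an unadjusted p under 0.05). With shRNA 2 leaving out 1 array gave 1 to 4, and between the hairpins 1 to 5. Over all rows, the reported counts were 3, 271 and 530. They were 148, 1003 and 1759 with quantile normalization alone, 162, 1004 and 1785 on the submitters' values, 79, 829 and 1508 with an offset of 50, 125, 896 and 1653 with a trended prior, and 29, 592 and 1139 with a stricter detection filter. They were 0, 116 and 247 with no filter, and 0, 165 and 230 from the 2 groups compared. Scaling to a common median gave 0 with shRNA 1 and 342 between the hairpins. Leaving out 1 array gave 0, 17 to 165 and 35 to 230. The limma counts of 0 with shRNA 1 came with 1438 (scaling), 2945 (no filter), 1790 (2 groups) and 1441 to 1790 (1 array left out) at an unadjusted p under 0.05. Under a replicate block the counts were 0 (1927 at an unadjusted p under 0.05), 142 and 333, though whether arrays of the same number belong together is not known.

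The median of the hypoxia-inducible genes with shRNA 1 was -0.065 with quantile normalization alone, -0.063 on the submitters' values, -0.080 with scaling, -0.083 with an offset of 50, and -0.13 to -0.020 with 1 array left out. With shRNA 2 it was 0.068 with scaling, 0.065 with no filter, and -0.016 to 0.068 with 1 array left out, and between the hairpins 0.028 to 0.14. The enzyme median ranged over 0.035 to 0.082, 0.021 to 0.12 and -0.027 to 0.053 with 1 array left out, and was 0.048 between the hairpins with scaling. Where 1 array was left out, the lone array of its group was taken to vary like the others. The causes were not tested. The number of arrays, 2 a group, limits the precision of every value.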
